A study of Mus musculus with 6 samples.

Results

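Methylglyoxal is removed from cells by a small set of enzymes, and 10 genes of this set were followed in mouse neurospheres, spheres that form in suspension culture from stem and progenitor cells of the brain. The 10 genes, Glo1, Hagh, Haghl, Park7, Glod4, Akr1a1, Akr7a5, Ldhd, Fn3k and Fn3krp, were chosen by name for clearing methylglyoxal or D-lactate or for repairing glycated protein, out of 22180 genes tested. Each was read from 1 probe set that pairs with that gene alone. RNA came from 6 neurosphere cultures of offspring of CD1 mice, an outbred stock. For 3 cultures the mothers had been injected with PBS, and for the other 3 with 0.5 mg/kg MG. MG is read as methylglyoxal from the series title. The mothers had 2 intraperitoneal injections a day from gestational day 12 to birth. At 2 months of age, cells of the subependymal region were dissociated and cultured for 7 days in serum-free medium with EGF and FGF2. Sample titles call the cultures primary and sample descriptions secondary. The labels state neither the sex of the offspring nor how many litters they came from. The p-values below measure the spread between these 6 cultures, and shared animals or litters within a group would make them too small.

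Methylglyoxal is a reactive dicarbonyl that forms mainly when triose phosphates of glycolysis lose their phosphate, and it modifies arginine and lysine residues and nucleic acids. It combines with glutathione into a hemithioacetal, which glyoxalase 1 (Glo1) turns into S-D-lactoylglutathione. Glyoxalase 2 (Hagh) splits that product into D-lactate and free glutathione, and the mitochondrial D-lactate dehydrogenase (Ldhd) oxidises D-lactate to pyruvate. Aldo-keto reductases take a second route, reduction of the aldehyde group, and fructosamine kinases destabilise sugar adducts on proteins so that they fall off. The series title places a Glo1 and methylglyoxal pathway in maternal diabetes and in the neural stem cells of offspring. The injections of the mothers ended at birth, whereas expression was read later, in cultured cells of the offspring.

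Before the members are described, the cultures and arrays were checked. Of 8 measured markers of neural stem and progenitor cells, 8 exceeded a reference level of 5.02 (log2) in PBS and in MG. That level is the 95th percentile of the mean values of 1394 olfactory and vomeronasal receptor genes, and genes whose means exceeded it in PBS and in MG (13725) are called expressed below. Above it were also 4 of 4 neuroblast and neuron markers, 3 of 3 measured oligodendrocyte markers and 2 of 3 ependymal markers. So were 2 of 5 microglial, 3 of 5 endothelial and 1 of 3 choroid plexus markers. Since 13725 of all 22180 genes exceeded it, these counts alone do not separate the cell types. The median marker level (log2) was 11.97 for stem and progenitor cells and 6.45 for neuroblasts and neurons. It was 6.04 for ependymal cells, 5.59 for oligodendrocytes, 5.04 for endothelial cells, 5.01 for microglia and 4.98 for choroid plexus. The arrays numbered 3 in each group stood apart from the other 4 in a DNA replication list. That list was chosen to show which arrays stand apart, with earlier results known, so its values describe the arrays and are not a test. All 17 of its genes were higher on both arrays numbered 3 than on any other array. The same held for 22.5% of the 13725 expressed genes. After centring each gene, the list averaged 0.44 (PBS) and 0.45 (MG) there, against -0.40 to -0.13 elsewhere. Differences with 1 or both arrays numbered 3 left out are given below for most members.

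None of the 10 genes passed the test of MG against PBS. Limma's moderated test gave each an adjusted p of 0.9998 (Benjamini-Hochberg over 22180 genes), beside 0% of all genes called. No member had an unadjusted p under 0.05, where 3.21% of all genes and 219 of the 13725 expressed genes did. By mean value, 4 members were higher and 6, the dim Fn3k among them, lower in MG, with a median log2 difference of -0.03. Over all genes the median was 0.01, and 53.8% had higher means in MG. The groups did not overlap in 1 of the 10 members, Glo1, beside 7.34% of all genes in either direction. In Glo1 MG was below, as in 3.31% of all genes and in 314 of the 13725 expressed genes.

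**Figure D1:**
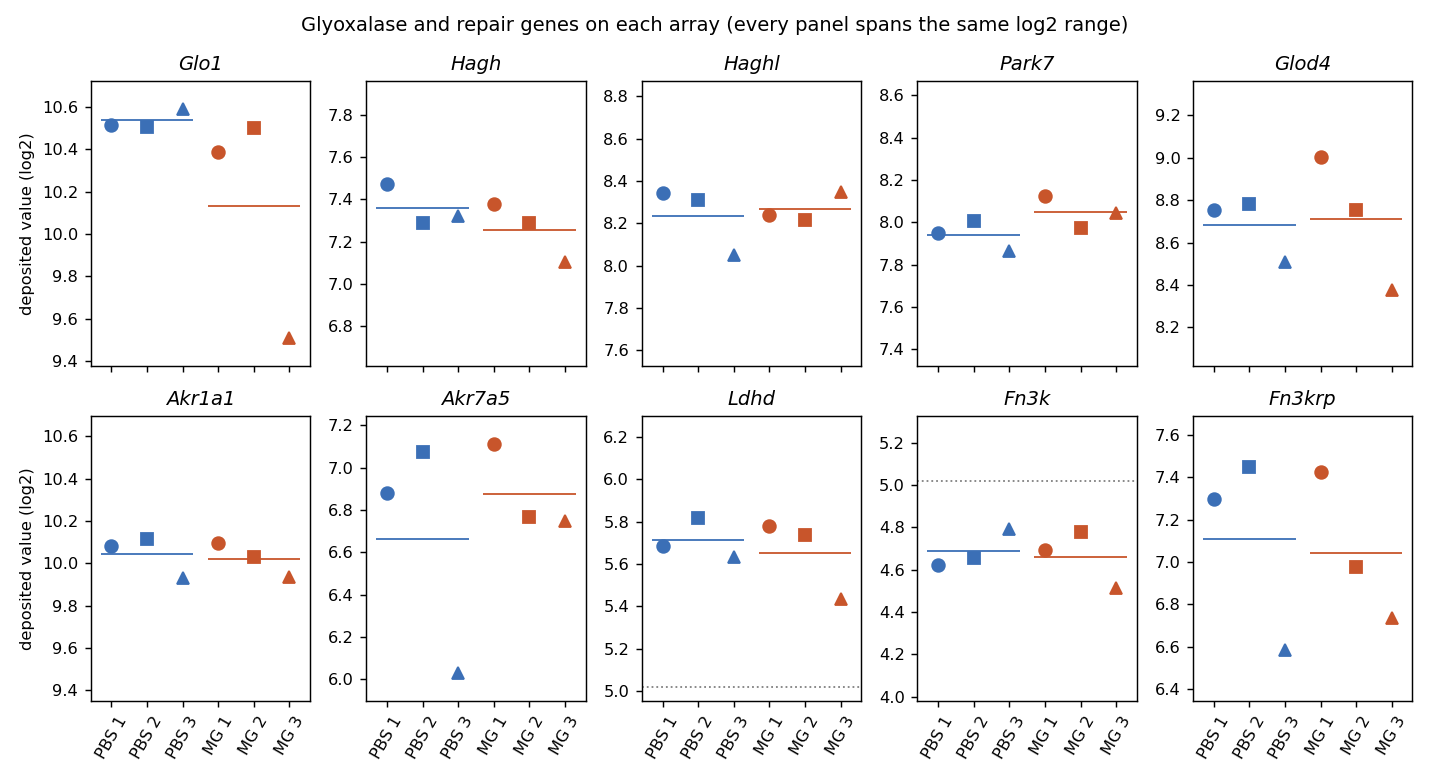
Log2 values as deposited for the 10 genes on the 6 arrays (blue, PBS; orange, MG; circle, square and triangle for replicates 1, 2 and 3). Horizontal lines are group means, the dotted line is the reference level of 5.02, and all panels span the same range of log2 units, so that the low MG replicate 3 value of Glo1 (9.51) and the low PBS replicate 3 values of Akr7a5 (6.03) and Fn3krp (6.58) can be compared by eye.

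Glo1, the first step of the glyoxalase system, was uniform on 5 arrays and low on 1. In PBS replicates 1, 2 and 3 it read 10.51, 10.50 and 10.59, and in MG replicates 1, 2 and 3 it read 10.39, 10.50 and 9.51. The 5 uniform arrays spanned 0.21 on the log2 scale, and MG replicate 3 lay 0.88 under the nearest of them. Against the mean of the other 5 arrays, MG replicate 3 was 0.99 lower (log2), a 1.99-fold lower signal. PBS averaged 10.54 ± 0.05 (SD, n = 3), whereas MG averaged 10.13 ± 0.54 (SD, n = 3). The difference was -0.40 (standard error 0.25, 95% interval -0.97 to 0.16). Without MG replicate 3 it was -0.09 (standard error 0.12), and without both arrays numbered 3 it was -0.06 (standard error 0.13). PBS replicate 3, the other array with high replication genes, had the highest Glo1 value of all 6. Whether the low value on MG replicate 3 is tied to those genes was not tested.

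A step of this size on a single array was rare among the 13725 expressed genes. MG replicate 3 was alone lowest by at least the Glo1 gap in 25 genes, Glo1 included, or 0.182%. The corresponding counts were 13 genes for PBS replicate 3, 8 for MG replicate 1, and 1, 0 and 1 for PBS replicates 1 and 2 and MG replicate 2. Of the 25, Glo1 was the 1 gene whose other 5 arrays kept within a range as narrow as its own. Both bounds were taken from the Glo1 values after they were seen, so these counts describe the array and are not a test.

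The promoter of Glo1 is printed because it was the member whose groups did not overlap, though no difference was called. Those of Akr7a5 and Fn3krp are printed because their values were the most spread out of the other members. Each line holds the 250 bases before the annotated start, 5′ to 3′ on the gene's strand, from the RefSeq promoter table of GRCm38.p6. They lie at chr17:30612660-30612909 (minus strand) for Glo1, chr4:139310494-139310743 (plus strand) for Akr7a5 and chr11:121421123-121421372 (plus strand) for Fn3krp. Capitals mark GGGCGG (the GC box) and CCAAT on either strand, so that CCGCCC is a GC box read from the other strand.
Glo1: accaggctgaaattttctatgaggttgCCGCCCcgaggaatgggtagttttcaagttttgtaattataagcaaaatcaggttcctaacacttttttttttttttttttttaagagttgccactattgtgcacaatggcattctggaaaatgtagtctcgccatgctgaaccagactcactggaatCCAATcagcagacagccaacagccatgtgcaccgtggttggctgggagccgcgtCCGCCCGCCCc
Akr7a5: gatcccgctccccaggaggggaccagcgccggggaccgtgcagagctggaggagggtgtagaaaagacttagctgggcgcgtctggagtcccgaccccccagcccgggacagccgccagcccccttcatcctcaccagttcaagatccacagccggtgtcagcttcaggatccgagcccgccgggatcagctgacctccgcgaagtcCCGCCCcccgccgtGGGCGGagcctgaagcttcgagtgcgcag
Fn3krp: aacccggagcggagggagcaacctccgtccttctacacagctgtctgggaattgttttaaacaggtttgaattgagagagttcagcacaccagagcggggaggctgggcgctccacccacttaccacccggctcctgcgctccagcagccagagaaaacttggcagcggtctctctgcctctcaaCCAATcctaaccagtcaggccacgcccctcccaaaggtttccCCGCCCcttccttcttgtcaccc
Glo1 had 3 GC boxes, 2 of which overlap just before the start (first bases 11 and 7 bases from it), and a CCAAT 65 bases before the start. Fn3krp also had a CCAAT whose first base lies 65 bases before the start, with 1 GC box, whereas Akr7a5 had 2 GC boxes and no CCAAT. The table held 12 start sites of 9 members. GGGCGG was in 6 of these 12 windows, against 32.7% of all 32851, and CCAAT in 7 of 12, against 33.8%. The hypoxia response core ACGTG was in 1 window, that of Ldhd (16.6% of all), as both strands of 1 CACGTG. The antioxidant response core TGACNNNGC was in 0 of 12 (10.2% of all). All motifs were searched on both strands, and several of the 12 windows overlap because Hagh and Haghl have more than 1 start.

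The genes downstream of Glo1 in the glyoxalase route held closer to the PBS level. Hagh had values of 7.47, 7.29 and 7.32 in PBS and 7.38, 7.29 and 7.10 in MG. MG replicate 3 was its lowest array too, but by a far smaller step, and the groups overlapped. The Hagh difference was -0.10 (standard error 0.13, 95% interval -0.39 to 0.19), and -0.027 without MG replicate 3. Ldhd, which disposes of D-lactate, had values of 5.68, 5.82 and 5.63 in PBS and 5.78, 5.74 and 5.43 in MG, with a difference of -0.06 (standard error 0.14). That sign turned when MG replicate 3 (0.048) or both arrays numbered 3 (0.0089) were left out. The arrays numbered 3 were the 2 lowest for Ldhd. Haghl, a sequence relative of Hagh whose substrate is less well known, behaved unlike it, with values of 8.34, 8.31 and 8.05 in PBS and 8.24, 8.22 and 8.35 in MG. Its lowest array was PBS replicate 3 and its highest MG replicate 3, and the difference of 0.03 (standard error 0.13) was -0.06 without PBS replicate 3.

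Park7 encodes DJ-1, a redox-sensitive protein to which glutathione-independent glyoxalase and deglycase activities have been ascribed. It kept within 0.26 on the log2 scale, with 7.95, 8.01 and 7.87 in PBS and 8.12, 7.97 and 8.04 in MG. The means were 7.94 ± 0.07 (SD, n = 3) and 8.05 ± 0.07 (SD, n = 3), a difference of 0.11 (standard error 0.11, 95% interval -0.15 to 0.37). On MG replicate 3, where Glo1 was lowest, Park7 stood 0.09 above the PBS median. Glod4, a member of the glyoxalase-fold family with no settled substrate, had 8.75, 8.78 and 8.51 in PBS and 9.0, 8.75 and 8.38 in MG. Both arrays numbered 3 were its lowest and MG replicate 1 its highest. The Glod4 difference was 0.03 (standard error 0.18), and it was 0.20 without MG replicate 3 and -0.12 without MG replicate 1.

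The reductases gave the tightest and one of the widest patterns of the set. Akr1a1, the aldehyde reductase that reduces methylglyoxal with NADPH, had 10.08, 10.11 and 9.93 in PBS and 10.09, 10.03 and 9.93 in MG. Its range over the 6 arrays was 0.18 on the log2 scale, or 1.13-fold, the narrowest of the 10 genes. The interval of its difference ran from -0.29 to 0.25, so that a change of more than 1.23-fold in either direction lies outside it. Akr7a5, an aldo-keto reductase of the aflatoxin aldehyde reductase family, had 6.88, 7.07 and 6.03 in PBS and 7.11, 6.77 and 6.75 in MG. PBS replicate 3 alone was low, and the range of 1.08 was close to that of Glo1 (1.09). The difference of 0.21 (standard error 0.26, 95% interval -0.39 to 0.82) was -0.10 without PBS replicate 3.

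The protein repair kinases differed from each other in whether they could be measured. Fn3k, fructosamine 3-kinase, lay between 4.51 and 4.79, under the reference level on every array, so its log2 differences compare signals within the range of the receptor genes. Fn3krp, its relative that phosphorylates ribulosamines and psicosamines, had 7.30, 7.45 and 6.58 in PBS and 7.42, 6.98 and 6.73 in MG. Both arrays numbered 3 were its lowest, by 0.79 in PBS and 0.47 in MG against the mean of replicates 1 and 2 of the same group. The group difference was -0.06 (standard error 0.26), and leaving out PBS replicate 3 gave -0.33, leaving out MG replicate 3 gave 0.09.

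**Figure D2:**
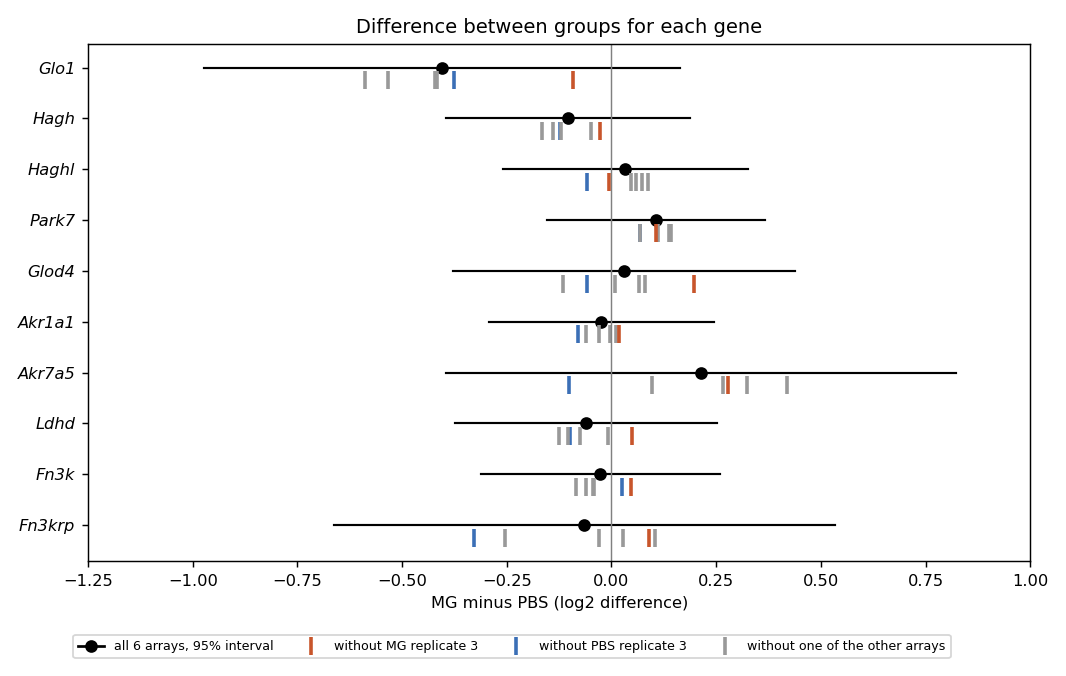
Difference of MG minus PBS for each gene on the log2 scale, with its 95% confidence interval from limma over all 6 arrays (black) and the difference with 1 array left out (ticks). All 10 intervals include 0. The Glo1 tick without MG replicate 3 stands at -0.09, and the Akr7a5 tick without PBS replicate 3 at -0.10.

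Over the 6 arrays, no relation of Glo1 to another member passed its test. Of 9 relations, 6 had a Pearson r above 0 and 4 a Spearman rho above 0, and 0 passed adjustment by either measure. With Hagh, r was 0.80 (exact permutation p = 0.222, adjusted 0.508, two-sided) and rho 0.49 (exact permutation p = 0.356, adjusted 0.80). With Ldhd, r was 0.81 (exact permutation p = 0.308, adjusted 0.508) but rho was 0.03 (exact permutation p = 1). These relations rested on MG replicate 3, for without that array r was -0.19 for Hagh and -0.69 for Ldhd. MG replicates 3 and 1 were the arrays farthest from the Glo1 median. Without both, r over the 4 left was -0.01 for Hagh and -0.78 for Ldhd. There r was above 0 in 1 of the 9, Fn3k (0.53), which lay under the reference level. In the others it ran from -0.99 (Glod4) to -0.01 (Hagh). On the 4 arrays left, Glo1 read 10.51, 10.50 and 10.59 in PBS and 10.50 on MG replicate 2. Since PBS replicate 3 alone stood off, these r values again rest largely on 1 array. The smallest p belonged to Park7, with rho -0.89 (exact permutation p = 0.0333, adjusted 0.30) and r -0.43 (exact permutation p = 0.339, adjusted 0.508). That relation ran opposite to the sign for Hagh and failed the correction.

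Array by array, the members divided into those whose lowest values were on the arrays numbered 3 and the others. Akr1a1, Akr7a5, Glod4, Ldhd and Fn3krp had both of these arrays as their lowest, 5 of the 9 expressed members (55.6%), where 18.8% of the 13725 expressed genes did. In Akr7a5 this rests on a small step, 6.75 on MG replicate 3 against 6.77 on MG replicate 2. Glo1, Hagh, Haghl and Park7 had another order. The same order was found in 10 of 13 genes (76.9%) of the list of methylglyoxal sources and glycolytic steps and in 7 of 12 (58.3%) of the lactate and pyruvate list. It was found in 33.3% of the glutathione list, 22.2% of the further enzymes, 11.1% of the structural relatives of the members and 0% of the receptors and binders of glycated protein. The source list averaged -0.34 on PBS replicate 3 and -0.26 on MG replicate 3 after centring, opposite in sign to the replication list. The part of the replication genes' shift in these values was not tested.

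**Figure D3:**
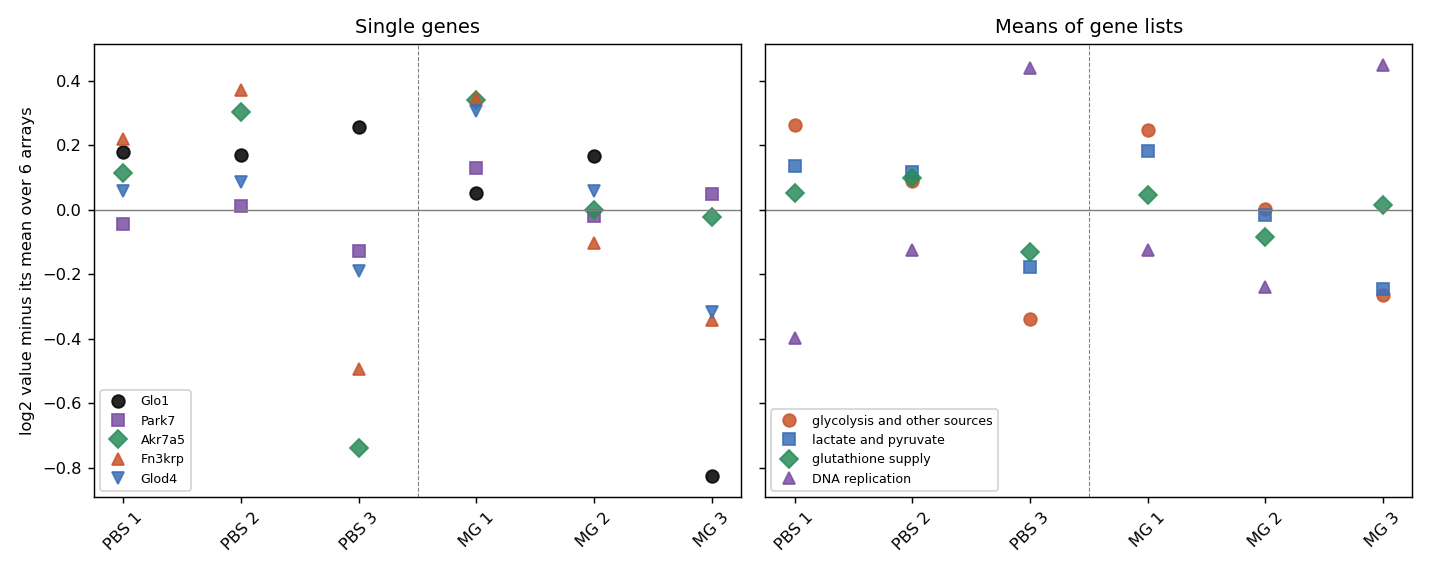
Log2 value minus its mean over the 6 arrays, for 5 members (left) and for the mean of the expressed genes of 4 lists (right). The source and lactate lists are lowest on the arrays numbered 3 and the replication list highest there, while Glo1 is low on MG replicate 3 alone.

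Most expressed genes of the list of methylglyoxal sources and glycolytic steps were lowest on both arrays numbered 3. They so differed from Glo1 in PBS replicate 3. The triose phosphate isomerase gene Tpi1, whose substrates are the main chemical source, had 11.63, 11.44 and 10.85 in PBS and 11.62, 11.38 and 10.85 in MG. Its arrays numbered 3 were lowest to the same level in both groups. The liver-type phosphofructokinase gene Pfkl read 10.40, 9.97 and 8.89 in PBS and 10.47, 9.70 and 8.86 in MG. Of the 15 measured genes of this list, 7 had higher and 8 lower means in MG, the median difference was -0.0047 and none passed. Gpd1, which turns dihydroxyacetone phosphate into glycerol 3-phosphate and so draws on the same triose pool, had an unadjusted p under 0.05. Of 89 genes measured over all the lists, it was the 1 (1.12%) that did. The same held for 3.21% of all genes and for 219 of the 13725 expressed genes. Gpd1 read 7.82, 8.04 and 7.98 in PBS and 8.31, 8.22 and 8.54 in MG, without overlap (MG above, as in 4.03% of all genes). The Gpd1 difference was 0.41 (standard error 0.13), and limma's p was 0.0145 before adjustment and 0.9998 after it. The platelet-type phosphofructokinase gene Pfkp had the largest difference in the other direction, -0.37 (standard error 0.22), which was -0.57 without PBS replicate 3. The groups of Cyp2e1, a cytochrome that can oxidise acetone toward methylglyoxal, did not overlap either (MG above), but it lay under the reference level.

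Genes that supply the glutathione used by glyoxalase 1 showed no called difference. Of 12 measured, 6 had higher and 6 lower means in MG, with a median log2 difference of 0.0015, and none passed. Gclc and Gclm, the subunits of the rate-limiting synthesis enzyme, differed by -0.07 (standard error 0.13) and 0.02 (standard error 0.12). The largest differences were those of Chac1, a glutathione-degrading enzyme, at -0.27 (standard error 0.21), or -0.48 with PBS replicate 3 left out and -0.14 with MG replicate 3 left out, and of Keap1, the repressor of NRF2, at 0.17 (standard error 0.13). On MG replicate 3, where Glo1 was lowest, the mean of the list stood 0.02 above the 6-array average.

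On the product side, 4 of 13 genes of lactate and pyruvate handling had higher and 9 lower means in MG, with a median difference of -0.03, and none passed. The lactate exporter gene Slc16a3 (MCT4) had 9.01, 8.59 and 7.79 in PBS and 8.92, 8.37 and 7.00 in MG, a difference of -0.37 (standard error 0.49). The pyruvate dehydrogenase kinase gene Pdk1 had 9.91, 9.37 and 8.67 in PBS and 9.61, 9.33 and 7.95 in MG, a difference of -0.35 (standard error 0.46). Without MG replicate 3 both signs turned, to 0.18 for Slc16a3 and 0.15 for Pdk1, and without both arrays numbered 3 the differences were -0.15 and -0.17. Both genes were lowest on MG replicate 3 and next lowest on PBS replicate 3, a pattern that differs from Glo1 in the second array. Pdhb, a pyruvate dehydrogenase subunit gene, did not overlap between groups (MG below, as in 3.31% of all genes). Its difference was -0.11 (standard error 0.12).

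The other gene lists around the pathway also gave no call. Of 11 further enzymes that act on methylglyoxal or related aldehydes, 8 had higher means in MG (median 0.04), led by Akr1e1 at 0.21 (standard error 0.31) and Aldh9a1 at 0.15 (standard error 0.16). Akr1b3, the aldose reductase gene, had no probe set of its own and was not analysed here. Of 10 receptors and binders of glycated protein, 7 had lower means (median -0.03), and 5 of the 10 were expressed. Ddost had the largest difference of these 5, at -0.20 (standard error 0.13), followed by Lgals3 at 0.09 (standard error 0.15), which was -0.035 without MG replicate 3. Stab1, a scavenger receptor, did not overlap (MG below, as in 3.31% of all genes) but had a mean under the reference level in MG. Ager, the gene of the receptor RAGE, differed by -0.01. Of 11 structural relatives of the members, 6 had higher means (median 0.08). The largest were Hpdl at 0.20 (standard error 0.12) and Pnkd at 0.18 (standard error 0.13), the latter a metallo-hydrolase related to Hagh. The groups of Hpdl did not overlap (MG above, as in 4.03% of all genes). In the replication list, Tyms at 0.26 (standard error 0.41) and Mki67 at 0.17 (standard error 0.19) had the largest differences, and without MG replicate 3 they were -0.17 and 0.072.

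Because Glo1 was low on 1 array, the genes beside it on chromosome 17 were read on the same arrays. The stock is outbred, and the genotype of the animals at this locus was not analysed here. Of 10 annotated neighbours, 5 per side in the RefSeq table, 5 were measured. Btbd9, the nearest measured protein-coding gene on one side, had 9.48, 9.35 and 9.40 in PBS and 8.91, 9.50 and 9.28 in MG, so its low array was MG replicate 1. Zfand3, farther out on that side, had 10.51, 10.60 and 10.04 in PBS and 10.87, 10.54 and 10.11 in MG, low on both arrays numbered 3. On the other side, the long noncoding RNA gene 1700097N02Rik had 6.38, 6.18 and 5.77 in PBS and 6.37, 6.43 and 5.47 in MG. It was lowest on MG replicate 3, 0.76 under the mean of the other 5, and next lowest on PBS replicate 3. Dnah8 and Gm6402 lay under the reference level. Dnah8, on the same side, was lowest on MG replicate 3 (3.64), 0.21 under the mean of the other 5. Glp1r, beyond the 5 and added after its values were seen, was low on both arrays numbered 3, at 5.33 and 5.32 against 5.88 to 6.16. Among these neighbours, no expressed one was low on MG replicate 3 alone. The expressed 1700097N02Rik and Glp1r had their lowest values there, as did the dim Dnah8. Whether the locus differs in the source of MG replicate 3 was not tested.

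**Figure D4:**
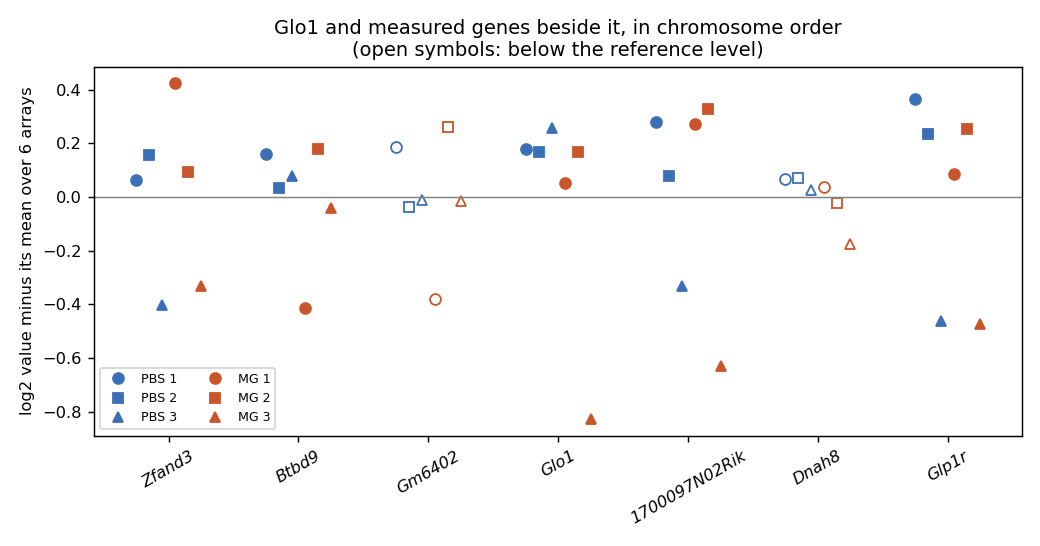
Log2 value minus its mean over the 6 arrays for Glo1 and the measured genes beside it, in chromosome order (blue, PBS; orange, MG; circle, square and triangle for replicates 1, 2 and 3; open symbols, genes under the reference level). Triangles of Zfand3, 1700097N02Rik and Glp1r are low in both colours, those of Glo1 in MG alone, and the low symbol of Btbd9 is MG replicate 1.

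The 5 genes most like Glo1, by Pearson r over the 6 arrays among expressed genes, were Osbpl8, Fgf22, Ret, Ffar1 and Tbxa2r, with r from 0.990 to 0.996. Likeness over so few arrays was set by 1 of them. Each of the 5 was lowest on MG replicate 3, by more than its range over the other 5 arrays. That range was widest in Ffar1, from 5.27 to 5.62. On MG replicate 3, Ffar1 (4.53) and Ret (4.85) lay under the reference level. There, Osbpl8, a lipid transfer protein gene, was 0.20 under the mean of the other arrays, and Ffar1, a fatty acid receptor gene, 0.94 under it. Fgf22 was 0.63, Tbxa2r 0.54 and Ret 0.36 under it. None of the members was among them.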

How the data were processed

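RNA from 6 neurosphere cultures was hybridised to Affymetrix Mouse Gene 2.0 ST arrays. The log2 values, 1 per probe set and array, were deposited by the authors. The submitters' processing notes name Partek 6.6; background correction, normalisation and summarisation: not given in the sources used here. That the scale is log2 was read from the values, which run from 0.73 to 13.81. Array medians lay between 5.25 and 5.42. Of 41345 probe sets, 23521 named 1 gene in the platform annotation, 1814 several and 16010 none here, and symbols were updated through RefSeq (GRCm38.p6; 21994 of 22180 genes matched by identifier). Where a gene had more than 1 probe set (1082 genes), the brightest by mean was used; no gene was left out as dim. Limma 3.58.1 in R 4.3.3 (lmFit, eBayes, no covariate, two-sided) compared MG with PBS, with Benjamini-Hochberg adjustment over all genes and a threshold of 0.05. The fit was tested on simulated data. Correlations used exact permutations in scipy 1.17.1, doubling the smaller tail. For arrays, their number limits the precision.

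The genes, the lists and the alternatives were chosen with earlier results of these data known. The text names all members, list genes with an unadjusted p under 0.05 or no overlap between groups, the 2 list genes above the reference level with the largest difference, 5 neighbours per side of Glo1 and the 5 genes most like it. Tpi1, Pfkl, Gclc, Gclm, Ager and Glp1r were added after their values were seen. Deviations from the group means correlated between same-numbered arrays by 0.33, 0.12 and 0.62. However, PBS replicate 1 correlated more with MG replicate 2 (0.37) and PBS replicate 2 with MG replicate 1 (0.46). The labels do not say what the numbers mark. The main fit was therefore unpaired, and the number served as a block only in an alternative setting. Proteins are not shown and promoter windows stop at the start site.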

Additional observations from a re-analysis of the deposited data

How the results depend on the processing

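In all 15 alternative settings (a filter on dim genes, quantile normalisation, median centring, averaged probe sets, 2 other moderations, array weights, a block by replicate number, and arrays left out), 0 of the 10 members and 0 of all genes passed the adjusted threshold. Genes with an unadjusted p under 0.05 numbered 712 of 22180, but 246 of the 13725 kept when dim genes were left out. They numbered 1163 with array weights, 1063 with the replicate block and 1067 without both arrays numbered 3. Without MG replicate 1 there were 956, without MG replicate 3 940, and without PBS replicate 1 416. With the replicate number as a block the Glo1 difference was -0.40 (standard error 0.22, adjusted p = 0.9992 in limma), 0 genes were called, and the block changed no call. Of 149 member values, 126 kept their sign and 23 did not, all 23 smaller than their standard errors. With 1 array left out, differences ran from -0.59 to -0.093 for Glo1, -0.17 to -0.03 for Hagh, -0.059 to 0.087 for Haghl, 0.07 to 0.14 for Park7, -0.12 to 0.20 for Glod4, -0.079 to 0.019 for Akr1a1, -0.10 to 0.42 for Akr7a5, -0.13 to 0.048 for Ldhd, -0.085 to 0.047 for Fn3k and -0.33 to 0.11 for Fn3krp. Other signs turned for Glod4 (-0.0014) and Fn3k (0.032) with quantile normalisation, Akr1a1 (0.018) and Fn3k (0.015) with median centring, Haghl (-0.044) and Fn3k (0.056) with array weights, and Haghl (-0.099), Akr7a5 (-0.038), Ldhd (0.0089) and Fn3k (0.098) without both arrays numbered 3. Array weights moved Glo1 to -0.19. Among correlations with Glo1, 0 passed under any alternative. Signs turned for Park7 (r 0.00025) and Akr7a5 (0.025) with quantile normalisation, Akr7a5 (0.022) with median centring, and Akr1a1 and Fn3krp (both -0.14) with Spearman's rho. The cause of these turns was not tested.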
